A study of Homo sapiens with 12 samples.

Results

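Exons that lie between the same pair of flanking exons can take turns in a transcript, be included together, or be skipped together. The RNA-seq table of 114816 exon events, which compared the prostate cancer lines GS689 and PC3E, held 19581 pairs of such exons. A pair was 2 events with the same chromosome, strand, upstream exon end and downstream exon start, whose own exons did not overlap and were each 51 to 499 nt long. No inclusion value entered this choice. The pairs were made of 30002 events and 20118 distinct exons between 13268 pairs of flanks; 10519 of these flanks held 2 member exons, 2202 held 3 and 547 held 4 or more. The skipping counts of the 2 events were identical in every library for all 19581 pairs, since both use the same skipping junction. At the length limits, 151 member events had an exon of 51 nt and 3 one of 499 nt, while 356 events of 50 nt and 7 of 500 nt in the table lay just outside.

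GS689 (GS689.Li in the labels) and PC3E are human cell lines that both descend from PC3, a prostate cancer line; GS689 has mesenchymal and PC3E epithelial character. Both were labelled wild type and were kept in DMEM/F12 with serum, non-essential amino acids and the antibiotic G418. They were harvested after a night in culture, and each line gave 3 RNA-seq and 3 RASL-seq libraries. RASL-seq is a targeted assay that counts probe pairs ligated across chosen splice junctions. The RNA-seq table lists 2 numbered sets of 3 libraries and its header does not say which line a set is, so the sets are described as set 2 and set 1, with no test, and only RASL-seq compares the lines.

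In a mutually exclusive pair the cell includes 1 exon of the pair and leaves out the other, so that a segment is exchanged. The protein can keep its length where both exons are coding and equally long. Many such pairs arose by duplication of an exon. PKM is a textbook case: pyruvate kinase, the last enzyme of glycolysis, is made as the PKM1 form with exon 9 or as the PKM2 form with exon 10, and PKM2 prevails in most tumours. Tropomyosins, which bind along actin filaments, and alpha-actinins, which crosslink them, exchange exons between muscle and non-muscle forms.

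The exons on which the results turn are shown next, 5′ to 3′ along the transcript, to let the exchanged segments be compared. Letters in capitals are the positions at which the 2 exons of an equal-length pair differ, and the ACTN1 exons, of unequal length, are in lower case throughout. Sequences are from GENCODE release 29 transcripts and positions are those of the deposited table on hg19. The PKM exons lie at chr15:72495363-72495529 and chr15:72494795-72494961 on the minus strand, and the TPM1 exons at chr15:63335905-63336030 and chr15:63336226-63336351 on the plus strand. The TPM2 exons are chr9:35685061-35685136 and chr9:35684729-35684804 (minus), and the DNM2 exons chr19:10906737-10906875 and chr19:10908056-10908194 (plus). Those of P4HA1 are chr10:74804739-74804809 and chr10:74803645-74803715 (minus), and those of RAB6A chr11:73429830-73429935 and chr11:73429658-73429763 (minus). The ACTN1 exons lie at chr14:69345706-69345786 and chr14:69345175-69345240 (minus). All 14 exons are coding in GENCODE.
PKM exon 9: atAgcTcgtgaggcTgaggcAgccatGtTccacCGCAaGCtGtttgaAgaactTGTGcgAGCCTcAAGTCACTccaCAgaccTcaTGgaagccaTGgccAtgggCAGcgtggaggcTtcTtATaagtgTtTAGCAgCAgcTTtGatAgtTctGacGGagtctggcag
PKM exon 10: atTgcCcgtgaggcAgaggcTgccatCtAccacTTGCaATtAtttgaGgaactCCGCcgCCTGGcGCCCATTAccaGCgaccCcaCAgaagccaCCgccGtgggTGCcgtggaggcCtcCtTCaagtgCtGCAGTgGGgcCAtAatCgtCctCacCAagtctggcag
TPM1 exon 2a: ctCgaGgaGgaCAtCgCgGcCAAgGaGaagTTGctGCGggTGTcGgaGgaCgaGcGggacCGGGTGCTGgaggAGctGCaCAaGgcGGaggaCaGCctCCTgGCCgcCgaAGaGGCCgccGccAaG
TPM1 exon 2b: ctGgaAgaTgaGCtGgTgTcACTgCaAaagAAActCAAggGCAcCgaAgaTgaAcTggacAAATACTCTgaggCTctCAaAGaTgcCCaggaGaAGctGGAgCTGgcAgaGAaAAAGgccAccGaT
TPM2 5′ exon: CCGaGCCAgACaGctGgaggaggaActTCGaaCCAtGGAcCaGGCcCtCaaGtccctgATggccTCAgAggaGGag
TPM2 3′ exon: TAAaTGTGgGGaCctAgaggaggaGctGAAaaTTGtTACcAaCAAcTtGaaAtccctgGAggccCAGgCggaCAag
DNM2 5′ exon: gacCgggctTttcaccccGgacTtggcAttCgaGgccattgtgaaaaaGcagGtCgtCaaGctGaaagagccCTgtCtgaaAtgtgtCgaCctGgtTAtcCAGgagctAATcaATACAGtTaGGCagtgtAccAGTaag
DNM2 3′ exon: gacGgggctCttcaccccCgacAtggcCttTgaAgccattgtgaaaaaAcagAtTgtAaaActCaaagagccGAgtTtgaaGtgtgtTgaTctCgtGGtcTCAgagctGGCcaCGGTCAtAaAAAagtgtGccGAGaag
P4HA1 5′ exon: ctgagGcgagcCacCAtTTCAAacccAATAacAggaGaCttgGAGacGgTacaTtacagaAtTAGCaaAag
P4HA1 3′ exon: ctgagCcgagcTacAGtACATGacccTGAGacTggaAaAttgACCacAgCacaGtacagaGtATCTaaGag
RAB6A 5′ exon: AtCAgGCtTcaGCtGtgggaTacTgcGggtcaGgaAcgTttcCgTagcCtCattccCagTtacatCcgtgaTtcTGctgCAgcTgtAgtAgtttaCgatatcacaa
RAB6A 3′ exon: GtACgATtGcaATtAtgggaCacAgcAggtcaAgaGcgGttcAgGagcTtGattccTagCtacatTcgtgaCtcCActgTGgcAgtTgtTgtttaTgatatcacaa
ACTN1 81 nt exon: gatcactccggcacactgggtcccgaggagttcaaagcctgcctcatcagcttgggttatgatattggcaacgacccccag
ACTN1 66 nt exon: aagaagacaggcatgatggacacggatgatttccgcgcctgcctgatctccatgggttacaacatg

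The PKM exons were identical at 105 of 167 positions (62.9%), and the TPM2 exons at 40 of 76 (52.6%). Identity was 69.8% in DNM2, 60.6% in P4HA1 and 70.8% in RAB6A, and 49.2% for the TPM1 exons 2a and 2b.

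Inclusion reads of the member events summed to between 15815722 and 16668688 in the libraries of set 2 and between 18440001 and 20408804 in those of set 1; a read can count in several events. Over 12186 events with median inclusion between 5 and 95%, library 2 of set 1 stood farther from libraries 1 and 3 of its set (median absolute difference 5.20 and 4.65 percentage points) than these did from each other (3.67), while the set 2 libraries differed by 3.59 to 3.82. Libraries of different sets differed by 4.72 to 5.86, and library 1 of set 1 was closer to each set 2 library than to library 2 of its own set. Of the 10 epithelial markers, 10 had an event in the table and 7 had at least 20 inclusion reads at their most-read event in every library. CDH1 (E-cadherin) had 13, 21 and 22 reads in set 2 and 2552, 2159 and 2959 in set 1. Of the mesenchymal markers, VIM (vimentin) had 43714, 42884 and 47405 reads in set 2 and 1877, 2473 and 2581 in set 1, and CDH2 (N-cadherin) was also higher in set 2. FN1 (fibronectin) went the other way, with 2448, 3554 and 2393 reads in set 2 and 4690, 4785 and 5425 in set 1. Of 6 mesenchymal markers 3 passed that minimum, of 6 prostate luminal markers 1 (TMPRSS2), and of 3 neuroendocrine markers 1 (ENO2); KLK3 and KLK2 had no event in the table. These marker levels were not used to assign a line to a set, and their part in the splicing differences was not tested.

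The table itself shows whether the 2 exons of a pair can occur together. In 17028 pairs (87.0%) a junction of the table joins the 5′ exon directly to the 3′ exon, and these are called joined. In 995 other pairs, called linked, junctions of the table connect the exons through a further exon, or an annotated transcript holds both exons. In 1558 pairs (7.96%) neither was found, and these are called separate. For 3934 joined pairs of exons of at least 102 nt, the junction counts could be solved exactly for transcripts with both exons, with 1 exon or with neither. The median share of reads with both exons was 96.5%, and in 2725 of them (69.3%) it was above 90%. At the other end, 235 pairs had both exons in under 5% of reads.

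**Figure D1:**
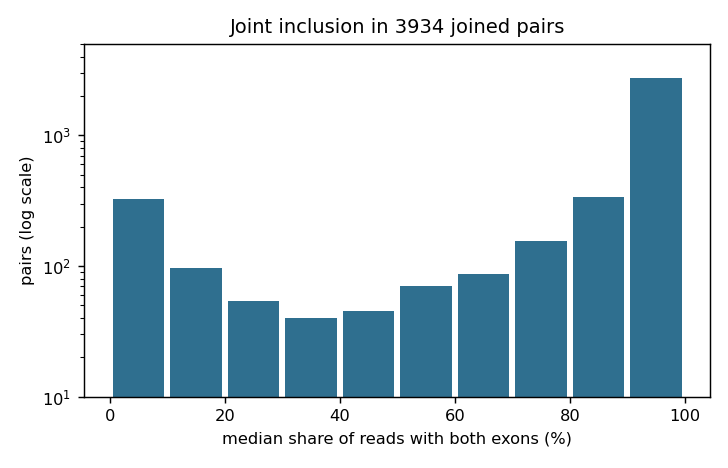
Number of joined pairs (log scale) by the median share of junction reads, over 6 libraries, that come from transcripts with both exons. Of 3934 pairs, 2725 lie above 90% and 325 at 10% or less.

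Among the pairs rarely included together, 5 had each exon in at least 10% of reads and transcripts with exactly 1 of the exons in over 50% of them, among them PLPP1, CDC14B and, with 2 choices of flank, KRIT1. In PLPP1, a lipid phosphate phosphatase, the 5′ exon had 9.77, 10.2 and 15.8% of the pair's inclusion in set 2, and 9.17, 7.78 and 14.97% in set 1. The sets overlapped. CDC14B, a phosphatase of the cell cycle, had its 144 nt exon at 48.0, 51.5 and 57.3% of the pair in set 2 and at 57.7, 65.3 and 65.1% in set 1. Its set 2 values were all below those of set 1, by 13.7 percentage points between medians. Both exons were skipped in 19.9 to 31.9% of a total in which transcripts with both exons count for each exon. In the exact solution, transcripts with neither exon made up a median of 32.0% of reads.

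For each pair, the share of the 5′ exon was its length-corrected inclusion count divided by the sum for both exons. At least 20 inclusion reads for the 2 exons together in every library were required, which 16304 pairs met, 88 of them with exactly 20 reads in their lowest library (75 pairs with 19 were left out). A share was called shifted where the set medians differed by at least 10 percentage points and the 3 values of set 2 did not overlap the 3 of set 1. This held for 814 of 16304 pairs (4.99%), with a higher share of the 5′ exon in set 2 in 254 (1.56%) and a lower one in 560 (3.43%). The percentages were close in the 3 classes: 737 of 14802 joined pairs (4.98%), 40 of 689 linked pairs (5.81%) and 37 of 813 separate pairs (4.55%). In joined pairs reads of transcripts with both exons enter the share, so a shifted share there is not in itself an exchange. Shares that did not overlap between the sets at any size were found in 3491 pairs (21.4%).

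PKM had a separate pair of exon 9 and exon 10. Exon 9 (PKM1) had 4827, 8406 and 6023 reads in set 2, and 820, 1382 and 1527 in set 1. Exon 10 (PKM2) had 34586, 47187 and 41133 reads in set 2, and 26504, 31910 and 40805 in set 1. Exon 10 was the major form in all 6 libraries, and the exon 9 share was larger in every library of set 2. That share was 12.2, 15.1 and 12.8% in set 2, and 3.00, 4.15 and 3.61% in set 1. The exact 95% binomial intervals, which cover counting error only, ran from 11.9 to 15.4% over set 2 and from 2.80 to 4.37% over set 1. The medians differed by 9.17 percentage points, just under the 10 that a shift required; the difference was 10.3 without set 2 library 1 and 10.1 without set 2 library 3. Both exons were skipped in at most 0.197% of the pair's total, so inclusion levels stayed near 100% (median for exon 9 99.1% in set 2 and 95.5% in set 1; for exon 10 99.9% in set 2 and 99.8% in set 1) although the choice between the exons differed.

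TPM1 had 15 events in the table and 2 joined pairs, both made of exon 2b and a form of exon 2a (126 or 363 nt long); its exons 6a and 6b gave no pair that met the rule. Exon 2a is known from smooth muscle tropomyosin and exon 2b from most other forms. The 126 nt exon 2a had 2, 2 and 7 reads in set 2 and 18, 7 and 13 in set 1, against 115, 68 and 211 reads for exon 2b in set 2 and 283, 194 and 293 in set 1. The share of exon 2a was 1.71, 2.86 and 3.21% in set 2 and 5.98, 3.48 and 4.25% in set 1. The set 2 values were all lower, by a median of 1.39 percentage points and from few reads. ACTN1 (alpha-actinin 1) had 1 joined pair, an 81 nt exon known from the non-muscle form and a 66 nt exon known from the smooth muscle form. The 81 nt exon had 6736, 5305 and 6827 reads in set 2 and 4587, 3753 and 4920 in set 1, while the 66 nt exon had 23, 122 and 81 reads in set 2 and 9, 22 and 11 in set 1. The non-muscle exon took 97.6 to 99.6% of the pair in set 2 and 99.4 to 99.8% in set 1, and the sets overlapped. ACTN4, the other non-muscle alpha-actinin, also kept its 81 nt exon above 99% of the pair in all 6 libraries.

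A group of 99 separate pairs was set apart by 2 limits. In all 6 libraries the 2 exons were skipped together in under 5% of the total. The rarer exon reached at least 10% in 1 or more of the libraries. These limits were chosen after the values were seen, and the pairs are called exclusive-type. They lay in 79 named genes. In 44 of them both exons are coding. In 11 the exons had equal length, with identities between 45.0 and 71.9%. In 39 of the 99 the lengths differed by a multiple of 3 or not at all, a part near that of all separate pairs (37.5%) and of all pairs (37.7%). In 23 the exons lay less than 70 nt apart (7 of them adjoined with no gap), a distance found in 100 of the 813 separate pairs that passed the read minimum and in 5 of the 14802 joined ones. The known cases RAB6A, with 66 nt between its exons, and ACP1, with 41 nt, are of this kind. Exons that adjoin have no intron between them, so no junction can join them and they are separate by position. Whether such exons are included together could therefore not be seen, and they are not shown to be alternatives. This held for 26 of the separate pairs that passed the read minimum and 0 of the joined ones. The contrast between the classes in short distances is therefore in part set by their definition.

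**Figure D2:**
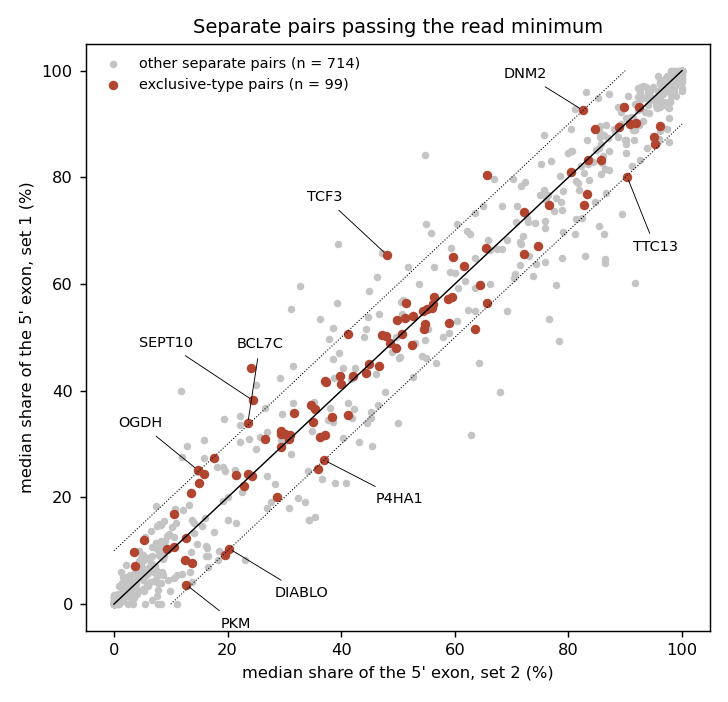
Median share of the 5′ exon in set 2 (x axis, %) and set 1 (y axis, %) for the 813 separate pairs; red points are the 99 exclusive-type pairs and dotted lines mark differences of 10 percentage points. Most points lie between the dotted lines, with PKM just inside and TCF3 and SEPT10 outside.

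Of the 99 exclusive-type pairs 9 were shifted (9.09%, against 4.99% of all pairs), 3 with a higher and 6 with a lower share of the 5′ exon in set 2. They lay in TCF3 (2 pairs), SEPT10, P4HA1, OGDH, BCL7C, DIABLO, TTC13 and DNM2. Shares did not overlap in 32 of the 99 (32.3%, against 21.4% of all pairs), and the median absolute difference was 3.25 percentage points, against 1.78 over all pairs. The choice of these pairs favours differences, since the rarer exon had to reach 10% in only 1 library: DNM2 and DIABLO entered through set 2 alone, with the rarer exon under 10% in every library of set 1. Among pairs that did not overlap but were not shifted, PKM also entered through set 2 alone, and ACSL1 through set 1 alone. The percentages therefore do not show that exclusive-type pairs differed more often than others.

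TCF3 encodes the helix-loop-helix factors E12 and E47, which differ by alternative exons for the DNA-binding segment. Its 201 nt 5′ exon (chr19:1615284-1615484) had 49.1, 46.2 and 48.0% of the pair in set 2 and 67.2, 64.2 and 65.5% in set 1, against the 224 nt 3′ exon (chr19:1612206-1612429). The medians differed by -17.5 percentage points. Counted as the 201 nt version alone, the 5′ exon was the major one in set 1 and the minor one in set 2. A 236 nt version of the 5′ exon, which shares its end, gave shares of 67.3, 61.7 and 65.7% in set 2 and 82.5, 78.2 and 80.5% in set 1. With that version the 5′ exon was the major one in both sets, so the share fell in set 2 without a clear change of the major exon. With a 3 nt longer version of the 3′ exon the pairs were joined in the table and were shifted in the same direction, so the 4 shifted TCF3 pairs reuse the same reads.

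DNM2 (dynamin 2), the GTPase that cuts endocytic vesicles from the membrane, has a pair of duplicated 139 nt exons in its middle domain. The 5′ exon had 2527, 2380 and 2198 reads in set 2 and 2542, 2968 and 3054 in set 1, and the 3′ exon 534, 609 and 442 reads in set 2 and 204, 209 and 313 in set 1. The 3′ exon thus had more reads in every library of set 2 than in any of set 1. The share of the 5′ exon was 82.6, 79.6 and 83.3% in set 2 and 92.6, 93.4 and 90.7% in set 1, a median difference of -10.0 percentage points, which lies on the limit for a shift. It was -9.51 without set 1 library 1, -9.08 without set 1 library 2 and -9.67 without set 2 library 2, so the call is lost there. The paralog DNM1 kept its 5′ exon at 90.6 to 97.6% in set 2 and 86.0 to 90.8% in set 1, with overlap.

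P4HA1, a catalytic subunit of the prolyl 4-hydroxylase that modifies collagen, has alternative exons of 71 nt. With the more deeply read choice of flanks, the 5′ exon had 36.8, 38.8 and 37.0% of the pair in set 2 and 23.7, 27.0 and 31.0% in set 1. The shares in set 2 were all higher, by a median of 9.99 percentage points, and by 10.5 with the other flank, the pair that passed the limit. That pair fell under the limit without set 1 library 1 (7.93), set 1 library 2 (9.58) or set 2 library 2 (9.91). In P4HA2, its paralog, the 60 nt exon had 76.3, 76.6 and 77.6% in set 2 and 75.3, 62.4 and 74.8% in set 1. RAB6A, a GTPase of Golgi traffic, makes the forms RAB6A and RAB6A′ from duplicated exons that differ at 31 positions. Its 5′ exon had 65.5, 65.7 and 67.6% in set 2 and 56.4, 51.01 and 56.4% in set 1, without overlap and with a median difference of 9.35 percentage points. ACSL1, which activates long-chain fatty acids, had its 5′ exon of 78 nt at 95.3, 93.7 and 96.8% in set 2 and at 92.0, 83.8 and 86.3% in set 1.

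**Figure D3:**
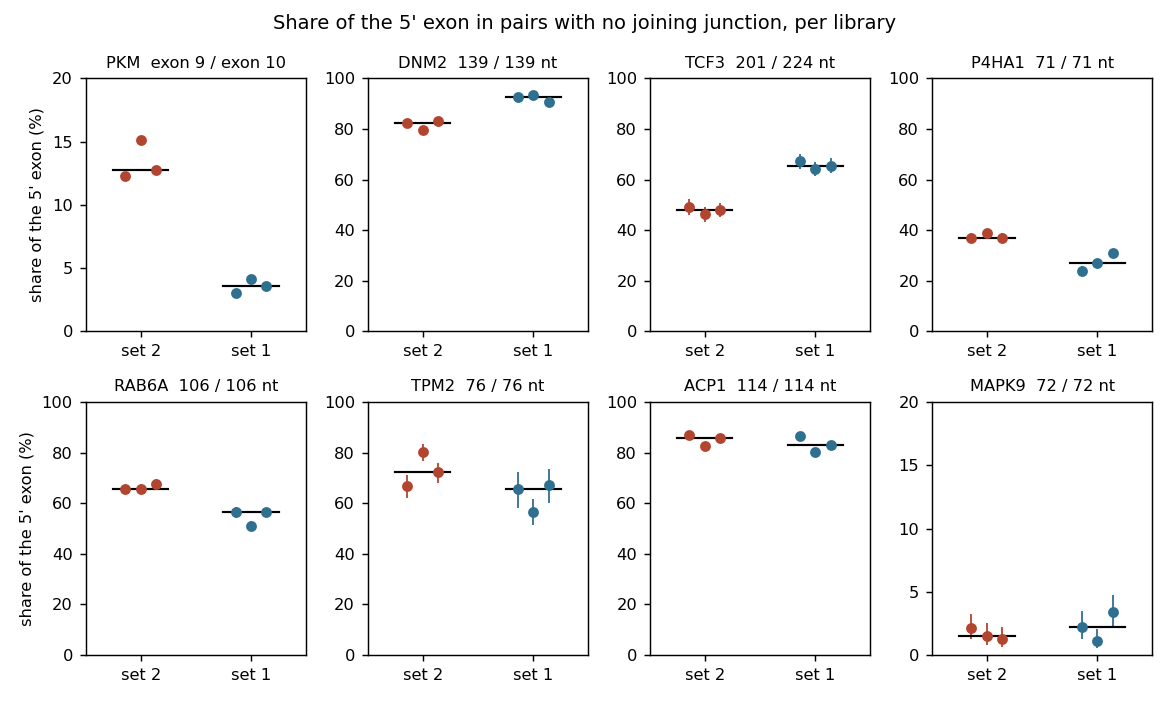
Share of the 5′ exon in each library (points; bars are exact 95% counting intervals, black lines set medians) for 8 separate pairs, set 2 left of set 1; the PKM and MAPK9 axes end at 20%. The sets do not overlap in PKM, DNM2, TCF3, P4HA1 and RAB6A, and overlap in TPM2, ACP1 and MAPK9.

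Among the other shifted exclusive-type pairs, OGDH, a subunit of the 2-oxoglutarate dehydrogenase of the citric acid cycle, had its 91 nt exon at 15.3, 10.2 and 14.7% of the pair in set 2 and at 25.1, 18.8 and 25.4% in set 1, against a 103 nt exon. SEPT10, a septin GTPase, had its 73 nt exon at 24.9, 22.7 and 24.5% in set 2 and at 43.0, 37.3 and 38.2% in set 1. BCL7C, a subunit of SWI/SNF chromatin remodellers, had its 109 nt exon at 23.1, 23.6 and 24.9% in set 2 and at 33.9, 32.3 and 35.7% in set 1. In these 3 genes the 5′ exon was the minor form in all libraries and had a lower share in set 2. DIABLO, which counters inhibitors of apoptosis, had a 104 nt exon that adjoins a 133 nt exon with no gap. The share of the 104 nt exon was 19.5, 19.6 and 18.1% in set 2 and 9.23, 9.67 and 9.02% in set 1. No junction can join these exons, so inclusion of both together could not be seen. TTC13 had its 111 nt exon at 91.3, 86.8 and 90.3% in set 2 and at 85.0, 80.1 and 78.8% in set 1.

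A list of 40 gene symbols known for mutually exclusive exons, in which H2AFY stands under its older and its newer symbol, gave 25 genes with a pair that passed the read minimum, 63 pairs in all, of which 24 were separate and 39 joined. The share was shifted in 6 of these 63 pairs (9.52%, against 4.99% of all pairs), all of them in TCF3, DNM2 and P4HA1. The share of the 5′ exon was higher in set 2 in 1 of the 6 and lower in 5. By gene this was 3 of the 25, and 4 of the 6 pairs were TCF3 pairs that reuse the same reads. The sets did not overlap in 21 of the 63 pairs, a larger part than in all pairs (3491 of 16304, 21.4%). Pairs of 1 gene can reuse reads, so these are not counts of independent pairs. The median absolute difference over the 63 pairs was 1.39 percentage points, against 1.78 over all pairs, and the list includes joined pairs that are not the known alternatives. Several known exons were used almost exclusively in both sets. SLC25A3, the mitochondrial phosphate carrier, had 8751, 8292 and 9986 reads for its 122 nt exon in set 2 and 17272, 17579 and 18673 in set 1. Its 125 nt exon, the form of heart and skeletal muscle, had 26, 26 and 20 reads in set 2 and 37, 27 and 50 in set 1. TPM3 kept its 5′ exon of 76 nt above 99% in every library, and MAPK9 (JNK2) kept its 3′ exon of 72 nt above 96%. TPM2 used both of its 76 nt exons. The 5′ exon, known from non-muscle and smooth muscle tropomyosin, had 66.8, 80.1 and 72.2% in set 2 and 65.5, 56.6 and 67.2% in set 1, with overlap. The 67 nt exons of U2AF1, a splicing factor, overlapped between the sets as well; U2AF1 has a near-identical copy, so its counts are uncertain. In MEF2D, a muscle transcription factor, the 138 nt exon had a median of 96.7% in set 2 and 97.4% in set 1, and in MEF2C the 144 nt exon had 95.1% in set 2 and 87.5% in set 1 without overlap.

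A stricter reading of trading places asked, beside the shifted share, that the inclusion levels of the 2 exons move in opposite directions with no overlap of the sets. It was met by 11 of 16304 pairs (0.0675%), in 10 genes: ADAM15, CANT1, EXOC7, HNRNPC, PICALM, TRA2A (2 pairs that share the 5′ exon), MPZL1, CPNE1, COA1 and C3orf33. Of these, 10 pairs were joined and 1, in HNRNPC, was separate. This reading set no minimum on the change of each inclusion level, so where skipping is rare it rests on small differences near 100%. PKM exons 9 and 10 did not meet it. Their share difference lay just under the limit, and the median inclusion levels of both exons were higher in set 2. In 9 of the 11 pairs the transcripts that skip both exons made up more than 15% of the total in every library.

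EXOC7, a subunit of the exocyst that tethers secretory vesicles, had a 93 nt exon (chr17:74087224-74087316) and a 69 nt exon (chr17:74086410-74086478). The 93 nt exon was included in 15.3, 15.1 and 17.0% in set 2 and 8.92, 3.13 and 6.74% in set 1. The 69 nt exon was included in 4.56, 3.71 and 4.62% in set 2 and 14.4, 4.79 and 10.8% in set 1. The 93 nt exon was the more used in set 2 and the 69 nt exon in set 1, while 79.0 to 92.4% of transcripts in all libraries skipped both. Junctions that can come only from transcripts without the other exon gave the same order: 107, 129 and 128 reads for the 93 nt exon and 4, 12 and 18 for the 69 nt exon in set 2, against 68, 27 and 28 and then 102, 28 and 77 in set 1.

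ADAM15, a membrane metalloprotease with a disintegrin domain, had a 72 nt exon included in 11.3, 9.65 and 5.82% in set 2 and 56.0, 83.8 and 50.7% in set 1, and a 214 nt exon included in 51.6, 48.8 and 50.6% in set 2 and 34.6, 30.4 and 26.6% in set 1. The 72 nt exon rested on 5, 4 and 4 reads in set 2. PICALM, a clathrin assembly protein, had a 60 nt exon at 73.1, 79.3 and 70.03% in set 2 and 42.4, 38.7 and 42.4% in set 1. Its 105 nt exon was at 88.2, 91.8 and 89.1% in set 2 and 95.5, 98.6 and 96.0% in set 1. MPZL1, a membrane glycoprotein that binds the phosphatase SHP2, had its 133 nt exon at 71.9, 72.7 and 72.7% in set 2 and 52.4, 34.0 and 46.9% in set 1, and its 103 nt exon at 88.4, 85.0 and 89.3% in set 2 and 96.0, 90.3 and 94.0% in set 1. In MPZL1 the junction from the 133 nt exon to the downstream flank held 240, 271 and 197 reads in set 2, of 240, 272 and 197 inclusion reads of that exon, so almost none came from the upstream flank.

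Some of the other trading pairs had small levels or few reads. HNRNPC, an RNA-binding protein of the spliceosome, had its 168 nt exon at 0.944, 2.02 and 1.60% in set 2 and 0.610, 0.928 and 0.780% in set 1, so the nearest values of the sets almost met. TRA2A, a splicing regulator, had its 90 nt exon between 1.47 and 1.85% in set 2 and between 2.45 and 4.03% in set 1. CANT1 (a calcium-activated nucleotidase) and CPNE1 (a copine that binds membranes with calcium) had lower inclusion of the 5′ exon and higher inclusion of the 3′ exon in set 2. In COA1, an assembly factor of cytochrome oxidase, and C3orf33 it was the reverse. The 3′ exon of C3orf33 had 0 reads in each set 2 library and 1, 3 and 9 in set 1.

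**Figure D4:**
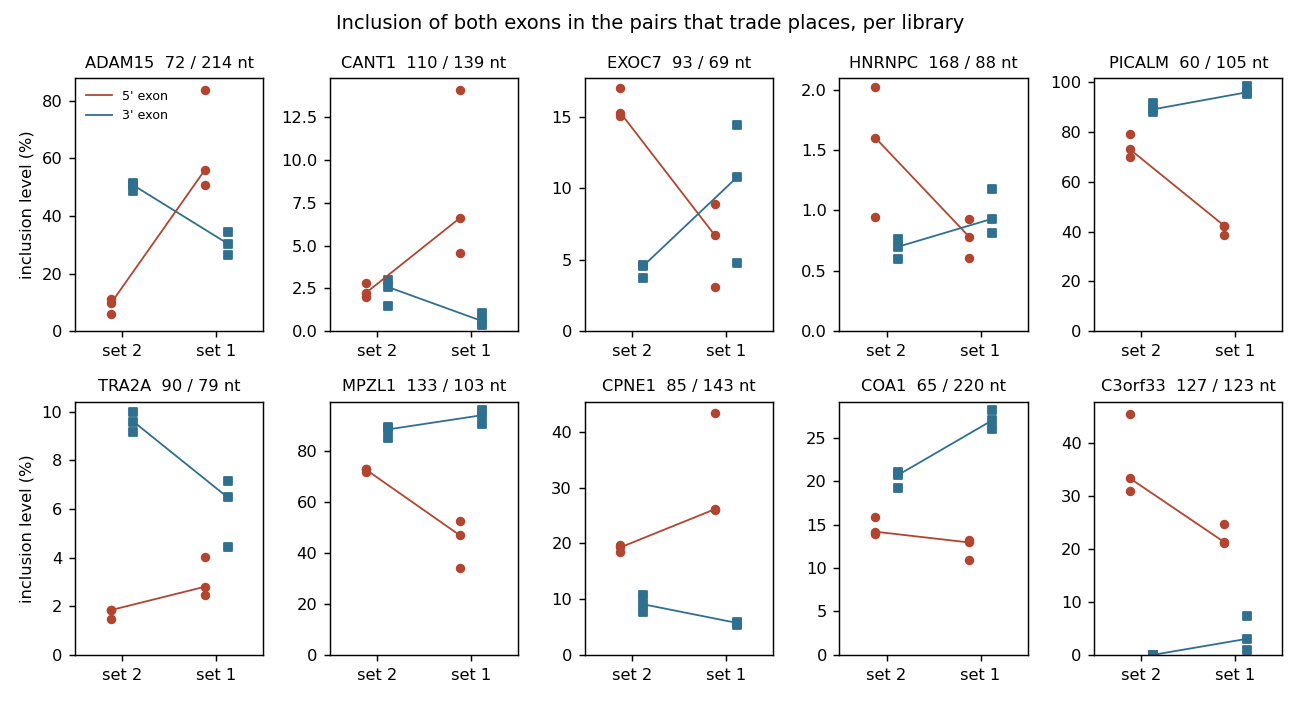
Inclusion level (%) of the 5′ exon (red circles) and the 3′ exon (blue squares) in each library, set 2 left of set 1, for 1 pair in each of the 10 genes that trade places; lines join set medians, and the y axes differ. The lines cross or diverge in opposite directions, and HNRNPC, CANT1 and TRA2A lie at or below 15%.

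In joined pairs whose flanks hold exactly 2 events in the table, the junctions that belong to transcripts with only 1 of the exons could be compared. Of 1505 pairs with at least 20 such reads in every library, 50 (3.32%) had a shifted share. The share of the 5′ exon was higher in set 2 in 30 and lower in 20. This measure was added after the values were seen. In 51 of the 1505 pairs these reads exceeded the inclusion reads of the exon in at least 1 library, so the 2 kinds of count do not always match. The largest difference was in PRR3, followed by EXOC7. In PRR3 the 63 nt exon had 54, 58 and 32 such reads in set 2 and 5, 9 and 1 in set 1, and the 181 nt exon 6, 13 and 13 in set 2 and 31, 29 and 31 in set 1. RELCH, which acts in cholesterol transport between membranes, has a pair of 83 nt exons with 63.9% identity. Its 5′ exon had 159, 113 and 114 reads in set 2 and 40, 19 and 32 in set 1, and its 3′ exon 44, 59 and 45 in set 2 and 33, 51 and 39 in set 1. In PRR3 the exon with more such reads differed between the sets. In RELCH the 5′ exon had more in every set 2 library and in library 1 of set 1, so its share differed rather than the order in every library.

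By the inclusion levels, the 2 exons of a shifted pair more often moved the same way than in opposite directions. Of the 814 shifted pairs, both inclusion levels moved the same way without overlap in 84, only 1 of them in 134, neither in 585, and in opposite directions in 11. The 2 levels of a pair are computed with the same skipping count, so a change in skipping moves both the same way. Most shifted pairs were also joined (737 of 814), where transcripts with both exons enter both levels. The counts of 84 and 11 therefore do not show how often exons are exchanged. CD44, the hyaluronan receptor, had 2 variable exons of 102 and 90 nt that were both low in set 2. The 102 nt exon was included in 9.43, 7.87 and 12.04% in set 2 and 91.6, 86.5 and 92.2% in set 1, and the 90 nt exon in 11.2, 7.22 and 12.2% in set 2 and 96.3, 90.8 and 96.6% in set 1. CTNND1 (p120 catenin, which binds cadherins) had a 119 nt exon at 48.8, 42.3 and 44.0% in set 2 and at 0.409, 0.901 and 0.862% in set 1. Its 180 nt exon was at 56.1, 49.8 and 51.0% in set 2 and at 5.0, 5.29 and 4.10% in set 1, so both were higher in set 2.

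Shifts of single member exons were counted in the same way. Of 21747 member events with at least 20 reads in every library, 362 (1.66%) were shifted, 143 with higher and 219 with lower inclusion in set 2. Over all 90656 such events 1.37% were shifted, 0.558% with higher and 0.812% with lower inclusion in set 2, and outside the pairs it was 1.28%. Inclusion did not overlap between the sets, at any size, in 9.72% of all events.

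The 5 pairs of most reads with overlapping shares were in FTH1, PPIA, RPLP0, GAPDH and RPL8, all of them joined. Both inclusion levels were above 97% in every library except for the 5′ exon of RPL8, which had 2 to 10 reads. The share of the 5′ exon was 56.3% in set 2 and 55.9% in set 1 for RPLP0, and 50.03% in set 2 and 50.6% in set 1 for GAPDH (medians). These genes have processed pseudogenes, so their counts are uncertain.

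RASL-seq, whose libraries are labelled by line, held 187 of the member events, and 231 pairs had at least 1 exon in it. Library totals were 954120, 848241 and 615758 counts in GS689 and 848150, 754338 and 911476 in PC3E. Both exons were measured in 7 pairs only. Of the 110 member events tested, 8 (7.27%) changed between GS689 and PC3E, against 64 of all 1124 tested events (5.69%). A change needed 5 percentage points or more between the line means and an adjusted p under 0.05 in a quasi-binomial model moderated with limma, with Benjamini-Hochberg adjustment over all 1124 events. Of the 8, 4 rose in GS689 (2.14% of all tested events rose) and 4 fell (3.56% of all fell). The labels do not say that replicates came from separate cultures, so the p-values rest on differences among libraries that may be technical.

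Among the exons that rose were those of TRPC1, ERBIN and TMEM126B. An exon of the cation channel TRPC1 had 68.9% ± 2.91 in GS689 and 43.4% ± 11.4 in PC3E (SD, n = 3 each; limma-moderated adjusted p = 0.00255). ERBIN, a scaffold that binds the receptor ERBB2, had its 144 nt exon at 34.6% ± 5.26 in GS689 and 11.7% ± 2.75 in PC3E (limma-moderated adjusted p = 0.000485). A 172 nt exon of TMEM126B, an assembly factor of respiratory complex I, had 46.4% ± 0.755 in GS689 and 36.9% ± 2.84 in PC3E (limma-moderated adjusted p = 0.00272). No GS689 library overlapped a PC3E library in these 3 exons.

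The exons that fell were in TCF7L2, INF2, RNF34 and a gene that was not named by the structure match. TCF7L2, a transcription factor of the Wnt pathway, has a pair of similar 73 nt exons (identity 64.4%). Its 3′ exon (chr10:114920378-114920450) had 22.0, 28.1 and 28.1% inclusion in GS689 and 62.8, 74.2 and 62.8% in PC3E, with means of 26.1% ± 3.52 in GS689 and 66.6% ± 6.57 in PC3E (limma-moderated adjusted p = 5.43e-05). In RNA-seq the same exon had 43.4, 41.8 and 39.3% in set 2 and 73.7, 74.1 and 77.8% in set 1, and its 5′ partner had 30.5, 32.6 and 59.9% in set 2 and 13.5, 20.01 and 38.5% in set 1, where the sets overlapped. The share of the 5′ exon was 36.4, 40.3 and 69.7% in set 2 and 5.26, 8.04 and 15.2% in set 1. The partner was not among the RASL-seq events, so no exchange between GS689 and PC3E could be measured. INF2, a formin that nucleates actin, had its 57 nt exon at 79.9% ± 3.71 in GS689 and 97.4% ± 3.46 in PC3E (limma-moderated adjusted p = 0.0174). RNF34, a ubiquitin ligase, had 43.0% ± 1.97 in GS689 and 57.7% ± 4.35 in PC3E (limma-moderated adjusted p = 0.00508). The unnamed exon (chr7:38218692-38218747) had 34.1% ± 3.09 in GS689 and 45.5% ± 1.66 in PC3E (limma-moderated adjusted p = 0.0208).

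**Figure D5:**
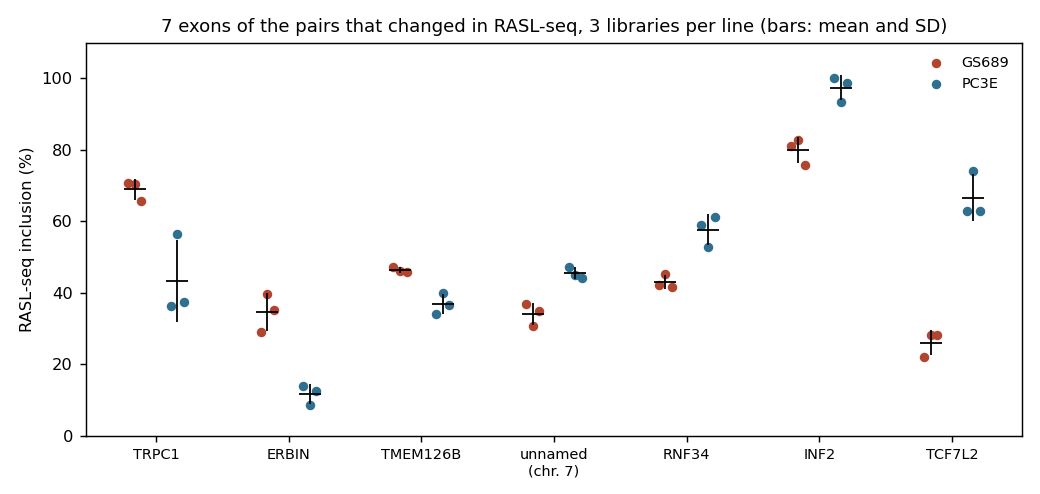
RASL-seq inclusion (%) of 7 of the member exons that changed, GS689 left of PC3E for each exon; points are the 3 libraries of a line and black bars the mean and SD. The lines do not overlap in any of the 7 exons.

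The 7 pairs with both exons in RASL-seq were in ABCC1, AKAP13, BTRC, GTPBP10, MFF, PHF20 and ZFYVE16, and none of their exons was called; those of PHF20 and 1 exon each of BTRC, MFF and ZFYVE16 had too few counts of the rarer form or too few in all to be tested. In GTPBP10, a GTPase of mitochondrial ribosome assembly, the 92 nt exon had 84.3% ± 5.43 in GS689 and 91.2% ± 3.81 in PC3E, and the 145 nt exon 11.4% ± 4.66 in GS689 and 12.2% ± 10.1 in PC3E (SD, n = 3 each). The limma-moderated adjusted p were 0.134 and 0.917. In AKAP13, an anchor of protein kinase A, the 54 nt exon had 67.7% ± 4.35 in GS689 and 80.2% ± 6.37 in PC3E (limma-moderated adjusted p = 0.166). Its 66 nt exon had 8.54% ± 6.20 in GS689 and 7.41% ± 12.8 in PC3E (limma-moderated adjusted p = 0.833). Depth differed among these exons, with a mean of 10.7 counts per library in PC3E for an exon of ABCC1 and of 234.3 for the 92 nt exon of GTPBP10.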

How the data were processed

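For each assay 1 table was used. In the deposited RNA-seq table, per the file headers, a cell holds 3 whole-number read counts (inclusion or skipping, by numbered set), and effective lengths, listed here as a score, are 101 nt for skipping and 102 to 202 nt for inclusion. Each RASL-seq cell holds a pair of raw counts per library, per the file headers; NA cells were read as 0, and the first count was taken as inclusion. Both units are recorded as other, since a cell holds several counts. The tools named are kallisto 0.43.0 and STAR 2.5.2a, with hg19 as the build and no role or order, per the submitters' processing notes.

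Genes were named by chromosome, strand, exon length and both intron lengths in GENCODE release 29, which is on another build; 18636 of 19581 pairs matched 1 symbol, 398 several and 547 none. No coordinates were converted. Exon sequences come from its transcripts. The 5′ exon is the left one on the plus strand and the right one on the minus strand. The inclusion level is length-corrected. No test was made between the RNA-seq sets, which carry no line name.

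RASL-seq events were tested if they averaged 10 or more counts over the libraries, had a count in every library and held 10 or more counts of the rarer form. The test was made with a quasi-binomial model and an F test, dispersions moderated with limma 3.58.1 in R 4.3.3, Benjamini-Hochberg over all tested events. Scripts were tested on simulated data. Unused per-sample columns numbered 0.

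Named were TPM1, PKM and ACTN1, the 15 trading pairs of largest difference with 1 per gene (10 genes exist), the 5 most-read pairs with overlapping shares, and the known list of exclusive exons; other genes were chosen after their values were seen. Members, lists and tests were chosen with earlier results of these data known. Alternatives were read minima, limits on the shift, length correction, leaving out each library, and for RASL-seq limma on the log2 ratio of the deposited counts. Some genes counted in the totals are not reported here.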

Additional observations from a re-analysis of the deposited data

How the results depend on the processing

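Trading pairs numbered 11; with a minimum of 1 read in each library there were 19, with a shift of 20 percentage points 6, with flanks holding exactly 2 member exons 3, and with 1 pair per flank pair 5. Without 1 library of either set there were 16 to 32, since fewer libraries can overlap. The largest count, 32, was without replicate 2 of set 1, the library farthest from its set; 23 were found without replicate 1 of set 1 and 23 without replicate 1 of set 2, 17 without replicate 2 of set 2 and 18 without its replicate 3. All 11 pairs were among those found in each case but 1: 10 remained without replicate 3 of set 1. Measures added after the values were seen gave 814 pairs by the share alone, 37 among separate pairs, 9 among exclusive-type pairs and 50 by single-exon junctions.

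Shifted member events numbered 362; there were 241 with a minimum of 50 reads, 773 with 1 read, 702 at 5 and 112 at 20 percentage points, and 461 to 567 without 1 library, 567 being without replicate 1 of set 1. The 8 RASL-seq calls became 2 with limma on the log2 ratio at a pseudocount of 0.5 and 5 at a pseudocount of 5, for causes that were not tested, and 6 to 10 without 1 library. Adjusted p over the alternatives ran from 6.14e-07 to 0.0154 for TCF7L2 and from 4e-06 to 0.0323 for ERBIN, which were called in every setting. They reached 0.107 for INF2, 0.129 for RNF34, 0.223 for TMEM126B, 0.111 for TRPC1 and 0.178 for the unnamed exon. No paired analysis was possible because, in RNA-seq, the columns carry no replicate numbers. In RASL-seq, with the replicate number as a block 9 events were called; libraries of the same number did not deviate together (correlations 0.09, 0.04 and 0.06), so the block is not read as a pairing. No result changed direction. Few reads limit ADAM15 and C3orf33.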
